A study of Mus musculus with 2 samples.

Results

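Naive pluripotency transcription factors were described on 2 Affymetrix 3' expression arrays of mouse embryonic stem cells, through 10 genes: Nanog, Esrrb, Klf4, Tbx3, Tfcp2l1, Nr0b1, Nr5a2, Zfp42, Tcl1 and Gbx2. The members were the probe sets of the deposited table named to one of these genes alone. They were 13 probe sets, of 16994 in the table, and 10 genes, of 10313 genes with a single-named probe set. Of the 10, 9 encode transcription factors or cofactors. Tcl1 encodes a coactivator of the kinase AKT and was kept with them by its place in the list. Each of the 13 is of the type designed to bind a single transcript, with a name that ends in plain _at.

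The arrays came from cells labelled as overexpressing lincU, a long noncoding RNA, and from cells labelled as control, with 1 array each. Both were of a single line, in which green fluorescent protein is read out from the Sox1 locus. The cells were kept on feeders in medium with 15% serum and leukaemia inhibitory factor (LIF) at 1000 U/ml, and the feeders were taken off before RNA extraction. How lincU was overexpressed, what the control cells received and whether a group was 1 clone are not given in the sources used here. With 1 array per group no test between the groups was possible, and every difference below describes these 2 cultures and may hold variation between any pair of cultures.

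Naive pluripotency is the state of the preimplantation epiblast, and mouse embryonic stem cells keep it in culture through a set of transcription factors that sustain each other's expression. LIF feeds this set through STAT3, which acts on Klf4, Tfcp2l1 and Gbx2, while Tbx3 has been linked to a branch through PI3 kinase. ERK signalling, driven by FGF4, pushes cells out of the state, and the series asks whether lincU preserves naive pluripotency by restricting ERK.

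Values are log2 signals as deposited, so that a difference of 1 is 2-fold. All differences are overexpression minus control. A gene is called bright if its probe set lay at or above the median of named probe sets, 7.90 on the lincU overexpression array and 7.96 on the control array, on the array where it was higher. A gene with several probe sets is represented by the one of highest mean signal. The 10 genes were bright, and none of the 13 probe sets lay under the floor to which dim values were raised, 5.65 on the overexpression array and 5.73 on the control array.

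Promoter windows are shown for 3 members, Nanog and Zfp42 because they held OCT4-type letters and Esrrb because it held STAT letters. Windows of Tfcp2l1 and Nr5a2, which held KLF-type letters alone, are not printed. The RefSeq table of assembly GRCm38.p6 held 12 windows for 9 of the 10 genes, each from 250 bases before to 50 bases after a start site, and none for Tbx3. The sequences below are written 5′ to 3′ on the strand of the gene, with the motif letters found in capitals. The Nanog window is chr6:122707239-122707538 on the plus strand, that of Zfp42 is chr8:43306960-43307259 on the minus strand, and that of the first Esrrb start site is chr12:86360867-86361166 on the plus strand.
Nanog: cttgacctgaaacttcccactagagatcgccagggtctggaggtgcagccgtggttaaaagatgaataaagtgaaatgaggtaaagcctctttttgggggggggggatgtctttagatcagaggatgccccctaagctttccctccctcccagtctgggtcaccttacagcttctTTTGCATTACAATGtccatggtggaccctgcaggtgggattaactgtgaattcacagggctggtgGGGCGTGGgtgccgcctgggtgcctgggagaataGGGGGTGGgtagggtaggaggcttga
Zfp42: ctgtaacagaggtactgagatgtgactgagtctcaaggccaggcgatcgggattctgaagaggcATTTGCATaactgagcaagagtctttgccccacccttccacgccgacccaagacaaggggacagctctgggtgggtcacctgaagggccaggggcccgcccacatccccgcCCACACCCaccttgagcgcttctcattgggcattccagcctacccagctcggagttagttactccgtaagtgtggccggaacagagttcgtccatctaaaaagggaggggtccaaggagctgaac
Esrrb: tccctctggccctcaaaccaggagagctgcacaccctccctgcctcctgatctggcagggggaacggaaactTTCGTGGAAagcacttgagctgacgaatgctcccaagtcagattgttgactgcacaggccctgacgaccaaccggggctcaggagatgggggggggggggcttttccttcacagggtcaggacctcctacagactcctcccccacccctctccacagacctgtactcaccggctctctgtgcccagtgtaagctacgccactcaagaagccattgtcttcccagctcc

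In Nanog the first capitals are TTTGCATTACAATG, the element at which the OCT4 and SOX2 proteins bind side by side, searched as TTTGCAT and ACAATG with 1 base between them. These letters were chosen because the Nanog element is known, so their presence there is no finding. On both strands they were in 2 of 32851 windows in the table, and both were windows of Nanog that overlap each other. The further capitals in Nanog are GGGCGTGG and GGGGGTGG, matches to the KLF-type letters GGGNGTGG, which were in 17.6% of all windows and in windows of 4 members, Nanog, Tfcp2l1, Nr5a2 and Zfp42. In Zfp42 the first capitals are ATTTGCAT, the POU octamer ATGCAAAT read on the other strand, which was in 1.74% of all windows, and the second are a KLF-type match, CCACACCC. In Esrrb the capitals are TTCGTGGAA, a match to the STAT letters TTCNNNGAA, which were in 8.30% of all windows. The letters TCAAGGTCA and AAGGTCA, bound by ESRRB and NR5A2, and the TCF letters CTTTGAA were in none of the 12 windows, against 0.423%, 4.72% and 5.14% of all windows. A match is a description of letters and not of binding.

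All 13 probe sets had a higher signal on the lincU overexpression array than on the control array. As a background, 50.7% of all bright probe sets and 50.2% of the 5609 bright genes were higher on the overexpression array. The 10 genes had a median log2 difference of 0.40, or 1.32-fold, against 0.00 over all bright genes, and ranged between 0.06 and 0.92. Tbx3, Esrrb and Tcl1 were at least 1.5-fold higher, 3 of 10 genes, where 4.65% of bright genes were past 1.5-fold in the same direction and 6.69% in the opposite one. None was 2-fold higher, as were 1.53% of bright genes, and 7 of the 10 had a log2 difference of at least 0.32, as had 12.7% of bright genes. The members were chosen with earlier results of these arrays known, and their common direction is a description of them.

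**Figure D1:**
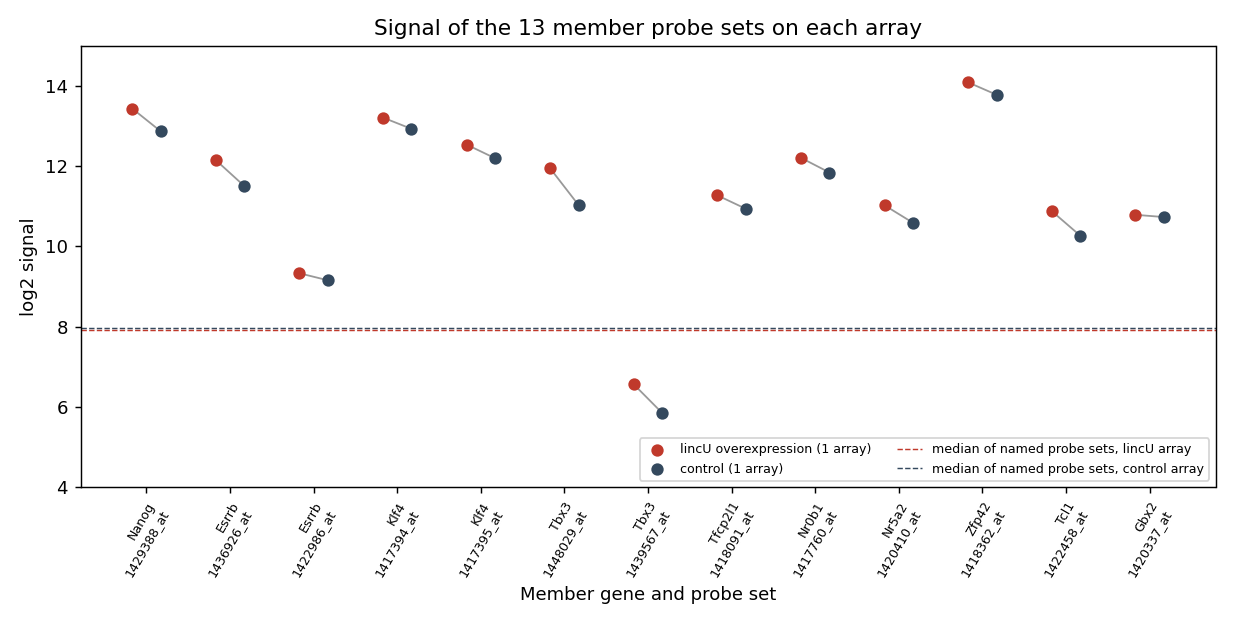
Log2 signal (vertical axis) of each of the 13 member probe sets (horizontal axis) on the lincU overexpression array (red, left point of each pair) and the control array (dark, right point), with the median of named probe sets on each array as a dashed line. In every pair the overexpression point is the higher one, and only the second Tbx3 probe set, at 6.56 and 5.84, lies under the medians.

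Differences were narrower among very bright genes, with an SD of 0.30 over the 2263 genes at least as bright on average as the dimmest member gene, against 0.40 over all bright genes. Of these 2263 genes, 57.7% were higher on the overexpression array and 2.65% were at least 1.5-fold higher. Their median difference was 0.03, and the middle 50% of them lay between -0.11 and 0.16. Of the 10 members, 9 lay above that range and Gbx2 lay within it.

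**Figure D2:**
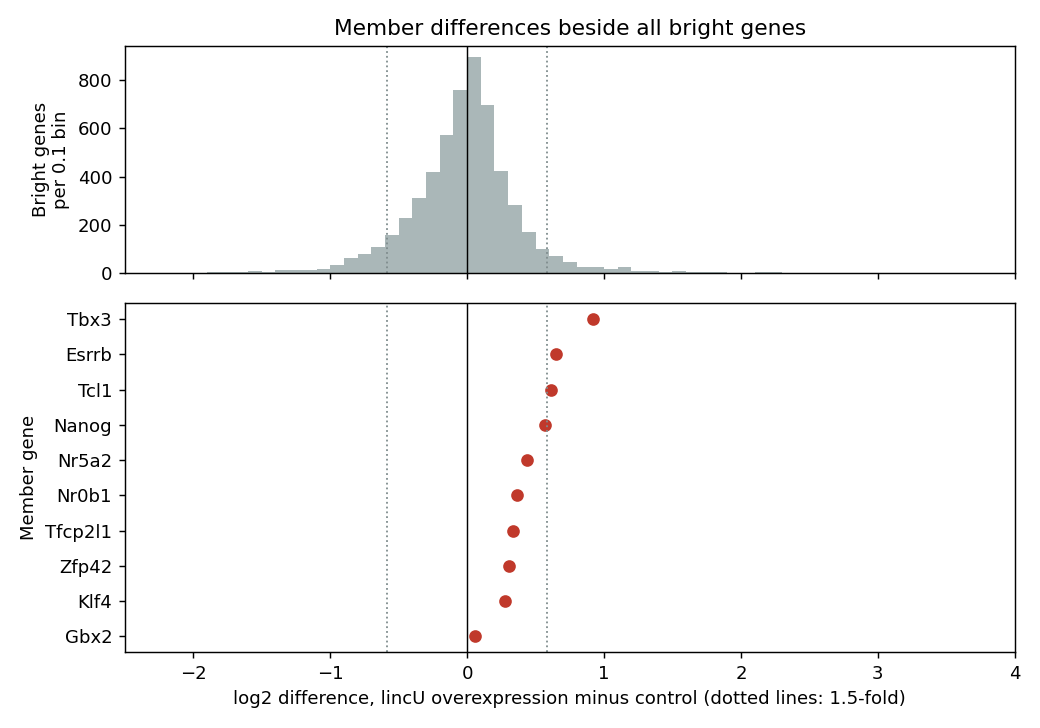
The upper panel shows the number of bright genes per 0.1 bin of log2 difference, and the lower panel the difference of each member gene as a red point. Dotted lines mark 1.5-fold in each direction, and all 10 points lie right of 0, with Tbx3, Esrrb and Tcl1 past the dotted line and Nanog just short of it.

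Tbx3 encodes a T-box factor that can sustain self-renewal when LIF is withdrawn, and it had the largest difference of the members. Its bright probe set 1448029_at had a log2 signal of 11.94 in lincU-overexpressing cells and 11.03 in control cells, a difference of 0.92 or 1.89-fold. Of all bright genes 1.85% had a difference at least as high. Its dim probe set 1439567_at had 6.56 in overexpressing cells and 5.84 in control cells, the second value close to the control array's floor of 5.73. Of named probe sets, 35.6% lay below it on the overexpression array and 26.3% on the control array, against 91.1% and 84.5% for the bright one. At these signals its difference of 0.71 is no independent check, and the Tbx3 value rests on the bright probe set.

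Esrrb encodes an orphan nuclear receptor, a direct target of NANOG that the repressor TCF7L1 holds down. Probe set 1436926_at had a log2 signal of 12.15 in overexpressing cells and 11.51 in control cells, a difference of 0.65 or 1.56-fold. Probe set 1422986_at had 9.33 in overexpressing cells and 9.15 in control cells, a difference of 0.17 or 1.13-fold. Both were bright and both higher, but only the first was past 1.5-fold. The gap of 0.47 between them is wide for these arrays, since 14.6% of the 1265 genes with 2 bright probe sets had a gap at least as large. With both averaged Esrrb stood at 0.41, which is under 1.5-fold.

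Nanog encodes the homeodomain protein that lets stem cells renew without LIF when it is overexpressed. Its 1 probe set had a log2 signal of 13.44 in overexpressing cells and 12.87 in control cells, a difference of 0.57 or 1.48-fold. Of bright genes 5.05% were at least as high. The RefSeq table also lists the pseudogenes Nanog-ps1 and Nanog-ps2, and whether they add to this signal was not tested.

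Klf4 encodes a zinc-finger factor downstream of STAT3. Probe set 1417394_at had 13.21 in overexpressing cells and 12.93 in control cells, and 1417395_at had 12.54 in overexpressing cells and 12.20 in control cells. The differences were 0.28 and 0.34, or 1.21-fold and 1.27-fold. They lay 0.06 apart, closer than in most genes, since 82.1% of genes with 2 bright probe sets had a gap at least as large. Both probe sets are annotated to the same source sequence, so their closeness is no independent check of the Klf4 value.

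Tfcp2l1, a factor of the CP2 family and a further STAT3 target, had a log2 signal of 11.27 in overexpressing cells and 10.94 in control cells, a difference of 0.33 or 1.26-fold. Gbx2, a homeobox gene that STAT3 also activates, had 10.79 in overexpressing cells and 10.73 in control cells, a difference of 0.06 or 1.04-fold. Of bright genes 41.2% had a difference at least as high as that of Gbx2, so its signal was close to equal on the 2 arrays.

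Nr5a2 and Nr0b1 belong, like Esrrb, to the nuclear receptor family. Nr5a2 encodes a receptor that binds regulatory sequence of Pou5f1, and it had 11.02 in overexpressing cells and 10.59 in control cells, a difference of 0.44 or 1.35-fold. Nr0b1 encodes DAX1, a receptor that lacks the family's usual DNA-binding domain and binds OCT4, and it had 12.21 in overexpressing cells and 11.84 in control cells, a difference of 0.37 or 1.29-fold. Of bright genes 7.90% were at least as high as Nr5a2 and 10.8% at least as high as Nr0b1.

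Zfp42 encodes the zinc-finger protein REX1, whose downregulation marks exit from the naive state. It had 14.09 in overexpressing cells and 13.78 in control cells, a difference of 0.31 or 1.24-fold. On both arrays its probe set was near the top of the range, with 99.1% of named probe sets below it on the overexpression array and 98.7% on the control array. The RefSeq table lists a pseudogene, Zfp42-ps1, and its part in the signal was not tested.

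Tcl1 had a log2 signal of 10.88 in overexpressing cells and 10.27 in control cells, a difference of 0.61 or 1.53-fold. Of bright genes 4.24% were at least as high. Its neighbour on chromosome 12, the paralogue Tcl1b3, went the other way, with 8.37 in overexpressing cells and 8.81 in control cells, a difference of -0.44. Tcl1b3 was chosen after its value was seen. Signals of different probe sets, here and above, do not order the amounts of different transcripts, because probe sets differ in how well they bind.

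The error that these arrays can show is the scatter between probe sets of 1 gene. Where a gene had more than 1 bright probe set, which was so for 1732 genes, its probe sets' log2 differences scattered around the gene's mean with an SD of 0.23, and over 570 genes whose probe sets were at least as bright as the dimmest member gene it was 0.13. Of the 10 members, 9 differed by more than 0.23, and Gbx2 by less than either SD. Tbx3, Esrrb, Tcl1 and Nanog, 4 members, differed by more than 2 times the SD of 0.23. Many other genes differed as much, since the SD of the differences over all bright genes was 0.40. Of bright genes, 15.5% were at least as high as Klf4, the lowest of the 9, and 5.05% at least as high as Nanog, the lowest of the 4. Klf4 and Nanog lie above the cutoffs used for these counts. The shares of bright genes past the cutoffs themselves are therefore larger, and were not calculated. The scatter between probe sets holds no variation between cultures.

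Member genes lay on 7 chromosomes, with Tfcp2l1, Nr5a2 and Gbx2 on chromosome 1, Esrrb and Tcl1 on chromosome 12, and the others on 4, 5, 6, 8 and X. Each was set beside its 10 nearest bright genes on each side, in the gene order of GRCm38.p6. For 8 members the median difference of these 20 neighbours lay within 0.1 of 0. The exceptions were Nanog, with a neighbour median of 0.34, and Klf4, with 0.21. All 10 members stood above the median of their own neighbours, Klf4 by only 0.07 and Gbx2 by only 0.06. The share of all bright genes that stand above their own neighbours' median was not calculated, so this count has no background beside it.

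Around Nanog, from Hdhd5 to Usp5, 17 of 20 neighbours were higher in overexpressing cells, and 5 had a difference at least as high as that of Nanog. With the neighbour median subtracted Nanog stood at 0.22, or 1.17-fold, against 0.57 before. Its nearest bright neighbours on each side, Dppa3 and Slc2a3, were picked here for their place beside it. Dppa3, a naive marker and maternal-effect gene, had 9.16 in overexpressing cells and 9.54 in control cells, a difference of -0.38. Slc2a3, which encodes a glucose transporter, had 14.26 in overexpressing cells and 14.07 in control cells, a difference of 0.19. The part of the chromosome 6 stretch in the Nanog difference was not tested.

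Around Klf4, from Tex10 to Slc31a1, 14 of 20 neighbours were higher and 9 were at least as high as Klf4, which stood at 0.07 with their median subtracted. Around Tbx3, from Pxn to Aldh2, 10 of 20 were higher and 1 was at least as high as Tbx3, and with the median subtracted Tbx3 stood at 0.93. Around Esrrb, from Npc2 to Ptpn21, 13 were higher, and Esrrb stood at 0.59. Esrrb lay between the bright neighbours Fos, an immediate early gene, and Cipc. Fos had 11.72 in overexpressing cells and 12.77 in control cells, a difference of -1.06, the lowest of the 20. Cipc differed by 0.13. Around Tcl1, from Ppp4r3a to Ppp2r5c, 8 were higher and none was as high as Tcl1, which stood at 0.68. Of the 20 genes around Esrrb, 1 was as high as Esrrb. The other 5 members stood between 0.06 and 0.46 with their neighbours' medians subtracted, lowest in Gbx2 and highest in Nr0b1.

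**Figure D3:**
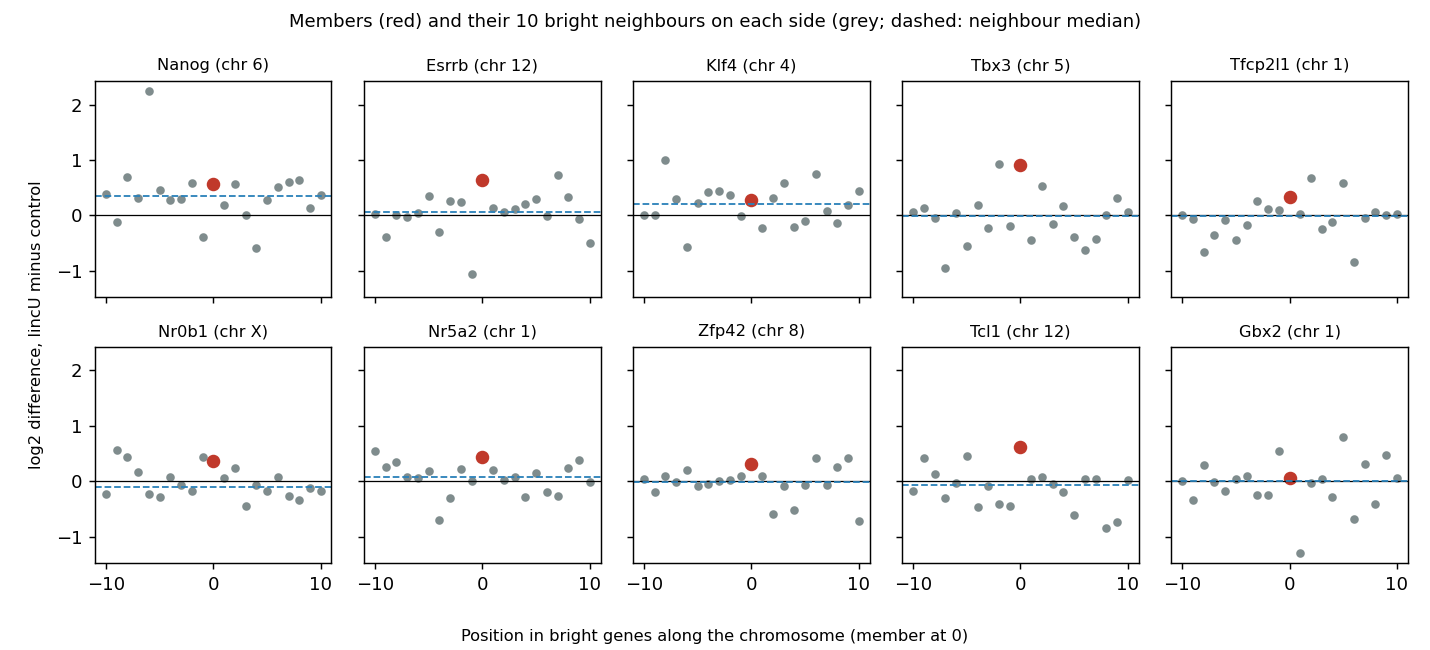
Log2 difference (vertical axis) of each member (red, at 0) and of its 10 nearest bright genes on each side (grey), by position in bright genes along the chromosome (horizontal axis), with the median of the 20 neighbours dashed. The dashed line lies clearly above 0 in the panels of Nanog, at 0.34, and Klf4, at 0.21, and the red point lies above the dashed line in each panel.

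Other genes of the pluripotency network spread to both sides of 0. Of 7 measured core genes, which naive and primed cells both use, 4 were higher and 3 lower, with a median of 0.08 and none past 1.5-fold. Utf1, a chromatin factor gene, had 11.56 in overexpressing cells and 11.99 in control cells, a difference of -0.43, and Dppa2 had 13.03 in overexpressing cells and 12.68 in control cells, a difference of 0.35. Fgf4, the ligand that drives ERK in these cells, differed by 0.30 on each of its bright probe sets. Pou5f1, which encodes OCT4, differed by -0.21 and Sox2 by 0.18. Of 5 further measured naive genes, 2 were higher and 3 lower, with a median of -0.06. The largest of these was Dppa3, followed by the corepressor gene Nacc1 at -0.30 and the F-box gene Fbxo15 at 0.14. Klf2, Klf5, Prdm14 and Tet2 were not analysed here.

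Upstream inputs of the members divided. Of 12 measured genes of the LIF, BMP and WNT inputs 9 were bright. Of the 9, 4 were higher and 5 lower, with a median of -0.18. The 3 dim genes were Lifr and Il6st, which encode LIF receptor subunits, at 0.65 and 0.70, and Smad5 at -0.08. The BMP receptor gene Bmpr1a had 11.45 in overexpressing cells and 10.47 in control cells, a difference of 0.97, and its other 3 bright probe sets lay between 1.02 and 1.46. Bmpr1a lies on chromosome 14, where its 20 nearest bright genes had a median of 1.01. Only 12 of the 20 were higher, so they did not all move alike. With that median subtracted the brightest Bmpr1a probe set, the one of smallest difference, stood at -0.04, and the other 3 would stand higher. Because the neighbours divided, their median is not a level that they shared. Id1, a BMP-induced inhibitor of helix-loop-helix factors, had 9.86 in overexpressing cells and 10.75 in control cells, a difference of -0.89. Stat3 itself differed by -0.25 and its feedback inhibitor gene Socs3 by 0.08, so neither was past 1.5-fold.

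Repressors and exit factors, which dismantle the naive network, had a median of -0.21 over 7 measured genes, of which 3 were higher, 4 lower and none past 1.5-fold. Tcf7l1, the repressor of Nanog, Esrrb and Tfcp2l1, had 9.86 in overexpressing cells and 10.29 in control cells, a difference of -0.43. Otx2, which drives the change to the formative state, differed by -0.39, and the folliculin gene Flcn by -0.27. Otx2 lies on chromosome 14 among 20 bright neighbours with a median of -0.61, and stood at 0.22 with that subtracted. Formative and primed epiblast genes had a median of -0.53 over 11 bright genes, 4 higher and 7 lower. Of these 11, 4 were at least 1.5-fold lower, namely Cldn6 at -1.57, Sall2 at -0.92, Dnmt3b at -0.83 and Pou3f1, which encodes OCT6, at -0.75. Dnmt3a, at -0.56, fell just short of 1.5-fold. Its other bright probe sets were at -0.45, -0.76 and -0.92. Sall2, also on chromosome 14, stood at -0.38 with its neighbours' median of -0.54 subtracted. Foxd3 was higher, with 9.32 in overexpressing cells and 8.29 in control cells, a difference of 1.03.

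**Figure D4:**
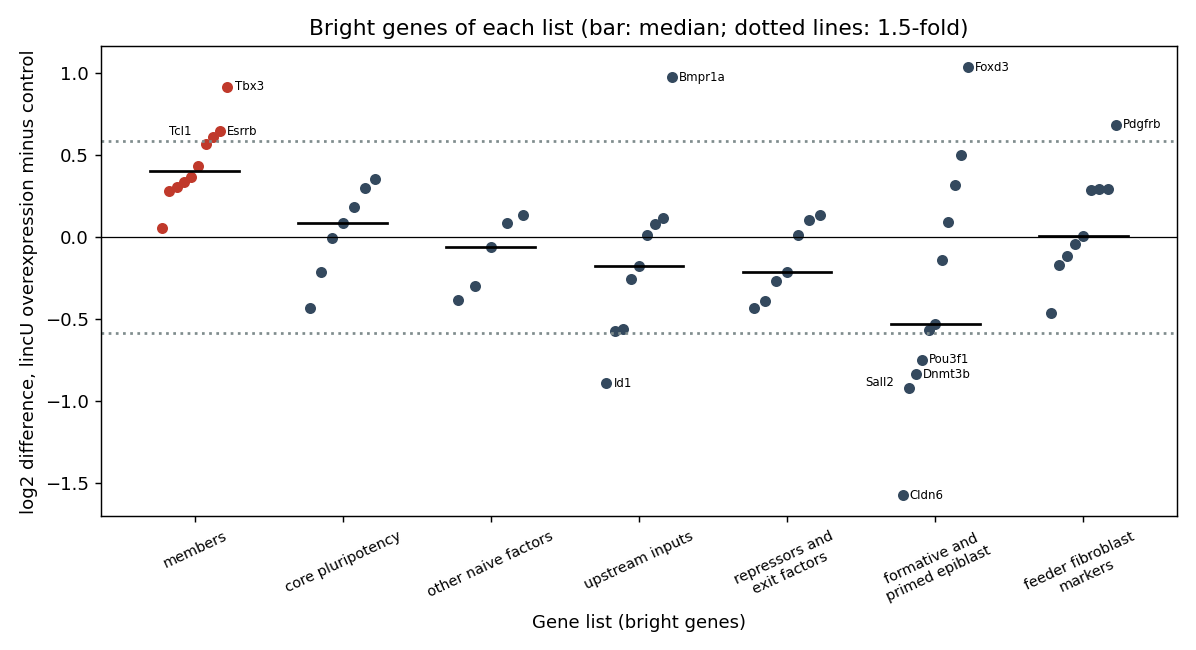
Log2 difference (vertical axis) of the bright genes of each list (horizontal axis), 1 point per gene, with the list median as a bar and dotted lines at 1.5-fold. The 10 members (red) all lie above 0 with a median of 0.40, while the core, further naive, upstream and repressor lists spread to both sides of 0 and the formative and primed list has a median of -0.53.

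Markers of stem cells, of feeders and of other cell types were read beside the label, without a test of whether those other cells were present. All 6 measured stem cell markers were bright, with 3 higher and 3 lower, and Tdgf1 was not analysed here. These 6 are also core genes described above, so they are no independent check. Feeder fibroblast markers were measurable, with 9 of 11 bright, none at or under the floor on both arrays, and 5 of the 9 higher. The median difference of the 9 was 0.01, and Pdgfrb, at 0.69, was the only one past 1.5-fold. Their summed linear signal was 1.13 times as high on the overexpression array, where that of the 10 members was 1.34 times as high. Fn1, which encodes fibronectin, set this value, and without it the feeder ratio was 1.01. Primitive endoderm markers were bright in 2 of 8 genes, trophoblast markers in 5 of 7, and neural markers in 3 of 5. Their summed linear signals, over measured genes, were 928 in overexpressing cells and 975 in control cells for primitive endoderm. For trophoblast they were 2410 in overexpressing cells and 4318 in control cells, and for neural markers 2802 in overexpressing cells and 2071 in control cells. The neural sum was set by Tubb3, and without it was 681 in overexpressing cells and 695 in control cells. Among bright neural markers Pax6 differed by 0.88, Tubb3 by 0.62 and Nes by -0.66. The bright markers of primitive endoderm were Amn, at -0.76, and Dab2, at 0.06. Its 6 dim markers went both ways, from Foxa2 at -0.76 to Pdgfra at 1.31. In the trophoblast list 4 of 5 bright genes were lower, with Cdx2 at -1.89, Krt8 at -1.43 and Krt18 at -1.25 past 1.5-fold, and Elf5 lay under the floor on both arrays, as did Sox1 of the neural list. The part of feeder or differentiated cells in the member differences was not tested, and in bulk RNA a change in the share of a cell type and a change in RNA per cell cannot be told apart.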

How the data were processed

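Biotin-labelled RNA was hybridised to Affymetrix 3' arrays, per the labels' protocols. The authors deposited a table of log2 signals with a column for each array. MAS5 and affy are named, without version or role, per the submitters' processing notes. The sources used here do not give the scaling target, and no detection call entered the comparison. The log2 scale was read from the values, whose maxima were 15.26 on the overexpression array and 15.13 on the control array.

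Probe sets were named through the platform annotation and updated by gene ID with RefSeq GRCm38.p6. Of the probe sets, 15273 had a single gene name, of which 15252 matched RefSeq, 501 had several names, 1156 had none and 64 were controls. Values were compared as deposited. Values under an array's 25th percentile of named probe sets were raised to it. With 1 array per group no test was run, and precision is limited by that number.

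The genes named were every member probe set. In each of the 5 other pathway lists they were the bright genes past 1.5-fold, and otherwise up to 3 bright genes of largest difference. Marker lists of cell types served as a check. Genes named outside this rule were chosen after their values were seen. Members, lists and thresholds were chosen with earlier results of these data known. Alternatives were centring, quantile normalization, a loess trend, other floors, a pseudocount, averaged probe sets, probe set type, fold threshold and brightness. Subtraction of the neighbours' median was added after seeing the data. The calculation, in Python 3.11.15 with pandas 2.3.3, was tested on simulated arrays. The differences planted there were larger than those of any member, so that test does not cover differences of the members' size.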

Additional observations from a re-analysis of the deposited data

How the results depend on the processing

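All 10 members stayed higher in overexpressing cells under every alternative tried, and their median difference lay between 0.35 and 0.46. Not every alternative could have changed this. The other floors and the probe set type left every member gene's value as it was, because each was read from a bright probe set of plain _at type. A pseudocount cannot change the sign of a difference. Under the centring, quantile, loess, floor, pseudocount and probe set alternatives, between 48.9% and 57.7% of all bright genes were higher. The highest share came with centring, which moved the median of all bright genes to 0.06. With the neighbours' median subtracted, the share of all bright genes was not calculated. The count of members at least 1.5-fold higher, 3 as reported, was 0 at a 2-fold threshold and 7 at a log2 threshold of 0.32. Of bright genes, 1.53% and 12.7% were past these 2 thresholds. The count was 4 with arrays centred on their medians, where 5.70% of bright genes were at least 1.5-fold higher. With probe sets averaged it was 2, where 3.94% of bright genes were. Over 9 alternatives Esrrb fell to 0.41 with probe sets averaged, and with the neighbours' median subtracted Nanog fell to 0.22 and Klf4 to 0.07, against 0.65, 0.57 and 0.28 as reported. Gbx2 lay between 0.05 and 0.11. No paired analysis was possible because each group had 1 array. With 1 array per group, differences between cultures of the same kind cannot be told apart from those of lincU.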
